A study of Mus musculus with 12 samples.

Results

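The question taken up here was how far the response to *Xist* induction differed once the B and C repeats of *Xist* were removed. For each gene, the log2 ratio of DOX to noDOX in the *Xist* ΔB+C line was compared with the same ratio in the *Xist* FL line, and the first minus the second is called the response difference. Positive values mark genes whose level with DOX, relative to noDOX, was higher in ΔB+C. The comparison used 8 of the 12 RNA‐seq libraries of the series, and 13255 of the 24627 genes in the count files had a level of at least 1 CPM (counts per 1000000 counts in the library) in at least 4 of these 8. Of the genes kept, 12779 were autosomal, 470 were X‐linked besides *Xist*, 5 were on the Y chromosome, and the last was *Xist* itself.

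The cells were *Xist*‐TetOP mouse embryonic stem (ES) cells of the male J1 line, which hold a single X chromosome. A TetO promoter at the endogenous *Xist* locus switches the RNA on when doxycycline (DOX) is added. The 4 groups were FL noDOX, FL DOX, ΔB+C noDOX and ΔB+C DOX. FL makes the full‐length RNA, while ΔB+C was derived from it by CRISPR‐Cas9 deletion of the B and C repeats and is 1 clone, so clone and deletion cannot be told apart. All cells were collected at day 2 of differentiation by LIF withdrawal, the DOX groups with 1.5 μg/ml DOX throughout. Each group had 2 replicates, described by the study as biological duplicates. Only a part of the cells coat the X chromosome with *Xist* after induction. In bulk RNA alone, fewer silenced cells and weaker silencing per cell cannot be told apart. By RNA FISH the study counted a larger share of coated cells in both ΔB+C DOX replicates than in both FL DOX replicates. It reports slightly weaker average silencing in ΔB+C, which was clearer once that share was taken into account. The values below are not adjusted for it.

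*Xist* is the long non‐coding RNA that coats the chromosome it is made from and starts X‐chromosome inactivation. Its A repeat recruits SPEN, which is needed for silencing, while the B and C repeats bind hnRNPK and through it the PCGF3/5 form of Polycomb repressive complex 1 (PRC1), whose histone H2A mark in turn brings in PRC2. In a male cell the only X is silenced after induction, so that X‐linked messages are lost with no second copy to replace them.

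Library totals lay between 31337490 and 41240470 counts. The ΔB+C DOX replicate 2 library started from 100 ng of RNA by a method for small inputs, against 1000 ng for the other libraries. *Xist* (chromosome X, 103460366 to 103483254, minus strand, mm10) was counted at 2.47 and 3.001 CPM in FL noDOX, 869 and 906 in FL DOX, 2.56 and 2.44 in ΔB+C noDOX, and 1830.1 and 1169.8 in ΔB+C DOX for replicates 1 and 2. Both induced ΔB+C libraries lay above both induced FL libraries, and the response difference of *Xist* was 0.85 (standard error 0.31, 95% interval 0.12 to 1.58), with an adjusted p of 1.00 in edgeR's quasi‐likelihood test over all genes. The count runs over all exons, so that the ΔB+C RNA lacks part of the sequence counted in FL. X‐linked genes besides *Xist* made up 2.88% and 2.76% of counts in FL noDOX and 1.904% and 1.64% in FL DOX. They made up 2.86% and 2.67% in ΔB+C noDOX, against 1.86% and 1.53% in ΔB+C DOX. The share was thus lower with DOX by 33.9% and 40.6% of its noDOX value in FL and by 34.9% and 42.9% in ΔB+C, and the gap between replicates was larger than the gap between lines. ES cell markers were present in all 8 libraries, with *Pou5f1* between 1174 and 1622 CPM and *Sox2* between 284 and 720.3 CPM. Of the 15 fibroblast and feeder markers, 12 passed the filter, *Lum* was at 0 in 3 libraries and *Postn* in 1, and the summed level of the list was 246 to 655 CPM in FL noDOX, 225 to 663 in FL DOX, 318 to 552 in ΔB+C noDOX and 394 to 663 in ΔB+C DOX, the higher value being replicate 1 in each group.

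No autosomal and no X‐linked gene passed the test for a response difference. In edgeR's quasi‐likelihood test, 0 of 13255 genes (0%) had an adjusted p under 0.05, the smallest adjusted p being 1.00, and 73 genes (0.551%) had an unadjusted p under 0.05. DESeq2, limma‐voom and limma‐trend also called 0 genes, with 40, 72 and 65 genes at an unadjusted p under 0.05. When the replicate number was added as a block, 0 genes were called and 561 (4.23%) had an unadjusted p under 0.05, of which 43 were among the 470 X‐linked genes (9.15%) and 514 among the 12779 autosomal genes (4.02%). Everything below on single genes is therefore a description of differences that did not pass.

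How large a difference these libraries could have missed depended on expression. Genes were divided by their mean level in the 4 noDOX libraries into tiers of 1 to 5, 5 to 20, 20 to 100 and over 100 CPM, with 175 genes (172 autosomal and 3 X‐linked) below the first tier. For autosomal genes, the 95% interval of the response difference lay wholly between -1 and 1, that is, within a factor of 2, for 21.1, 68.5, 90.6 and 94.3% of genes in the 4 tiers from low to high, and with the replicate block for 52.1, 94.8, 98.9 and 99.3%. Among X‐linked genes the shares were 14.9, 46.9, 74.1 and 80.95%, and with the replicate block 38.6, 85.5, 97.5 and 100.0%. A response difference beyond a factor of 2 was thus bounded for most X‐linked genes over 20 CPM and for few in the tier of 1 to 5 CPM. No gene over 5 CPM of either class had an estimated difference larger than 1 in size, and in the tier of 1 to 5 CPM 4 X‐linked and 33 autosomal genes did.

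**Figure D1:**
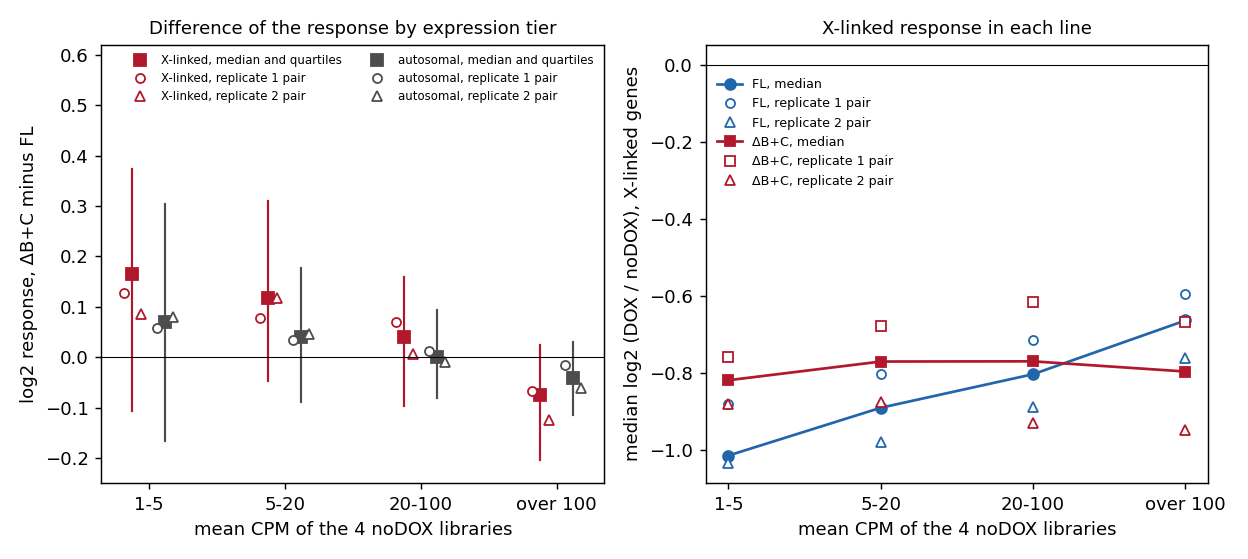
Left, response difference (log2, ΔB+C minus FL) by tier of mean noDOX CPM; squares are medians over genes, lines join the quartiles, and open symbols are the medians within replicate 1 and replicate 2. Right, median log2 (DOX / noDOX) of X‐linked genes in each line, with open symbols for replicates 1 and 2. The FL medians go from -1.01 in the lowest tier to -0.66 in the highest, while the ΔB+C medians stay between -0.82 and -0.77. From the lowest to the highest tier, ΔB+C replicate 1 goes from -0.76 to -0.67 and replicate 2 from -0.88 to -0.95.

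The X‐linked response difference ran from above 0 in weakly expressed genes to below 0 in the most strongly expressed ones. Its medians were 0.16, 0.12, 0.039 and -0.074 in the 4 tiers from low to high, over 101, 145, 158 and 63 genes. The number of genes with a higher response in ΔB+C was 67 of 101 at 1 to 5 CPM, 96 of 145 at 5 to 20, 92 of 158 at 20 to 100 and 19 of 63 over 100 CPM. Most X‐linked genes had less RNA with DOX in both lines, and the tiers differed mainly within FL. There the median log2 (DOX / noDOX) was -1.01, -0.89, -0.80 and -0.66, so that the most strongly expressed genes kept the largest share of their RNA. In ΔB+C it was -0.82, -0.77, -0.77 and -0.80, nearly the same in every tier, but its replicates differed. The ΔB+C medians were -0.76, -0.68, -0.62 and -0.67 within replicate 1. Within replicate 2, which holds the low‐input library, they were -0.88, -0.88, -0.93 and -0.95. In FL they were -0.88, -0.80, -0.72 and -0.59 within replicate 1, and -1.03, -0.98, -0.89 and -0.76 within replicate 2.

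Autosomal genes had a slope of the same sign and smaller size. Their median response differences were 0.069, 0.039, 0.0012 and -0.042 over 2438, 3188, 4830 and 2151 genes, with 1393 of the 2151 genes over 100 CPM lower in ΔB+C. The lowest minus the highest tier came to 0.24 for X‐linked and 0.11 for autosomal genes. Whether the X‐linked slope exceeds the autosomal one was not tested, since genes are not replicates. With the replicate block, 11 of the 63 X‐linked genes over 100 CPM had an unadjusted p under 0.05 (17.5%), 10 of them lower in ΔB+C, beside 3.39% of autosomal genes of that tier, and none was called. The noDOX libraries that set the tiers also enter the difference.

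The tier order was steadier than its level. In the replicate 1 libraries the X‐linked medians were 0.13, 0.077, 0.071 and -0.067, and in the replicate 2 libraries 0.085, 0.12, 0.0067 and -0.12. Without the low‐input ΔB+C DOX replicate 2 library they were 0.25, 0.25, 0.21 and 0.032, and without ΔB+C DOX replicate 1 they were 0.0033, -0.039, -0.15 and -0.24. Single libraries thus shifted all 4 medians up or down together, while the lowest tier stayed above the highest by 0.19 to 0.25 as each of the 8 libraries was left out. The autosomal gap ranged from 0.045, without the low‐input library, to 0.13. Over all 470 X‐linked genes the median was 0.053, with 275 genes higher in ΔB+C, and 0.0048 over the autosomal genes, with 6551 of 12779 higher. The X‐linked median was 0.20 without ΔB+C DOX replicate 2, and it was below 0 without FL noDOX replicate 1 (-0.0094), FL DOX replicate 2 (-0.074), ΔB+C noDOX replicate 2 (-0.0077) or ΔB+C DOX replicate 1 (-0.11). Its sign was therefore not stable as single libraries were left out, which unbalances the replicate numbers. With all 8 libraries the median was 0.060 and 0.017 within replicates 1 and 2, and 0.054 with the replicate block.

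Within each line taken alone, X‐linked genes made up most of the genes called lower with DOX in the fit without the replicate block. In FL 27 of 470 passed (adjusted p under 0.05 in edgeR's test), where 29 of all 13255 genes (0.219%) were called lower, and in ΔB+C 86 passed, where 109 of all genes (0.822%) were. Of these, 26 genes were called in both lines, 96.3% of the FL calls and 30.2% of the ΔB+C calls. With the replicate block, 381 X‐linked genes passed in FL (1040 of all genes, 7.85%) and 354 in ΔB+C (1486 of all genes, 11.2%), and 343 were shared, 90.03% and 96.9% of the calls. Autosomal genes were then the larger part of the calls, with 659 in FL and 1132 in ΔB+C. For X‐linked genes, the larger ΔB+C count without the block and the larger FL count with it leave no order between the lines. Without the block, the count was 0 or 1 in FL when any noDOX or FL DOX library was left out, and 72 and 74 without ΔB+C DOX replicates 1 and 2. In ΔB+C it was 0 without FL noDOX replicate 2, either ΔB+C noDOX library or ΔB+C DOX replicate 2, between 20 and 25 without any other FL library, and 90 without ΔB+C DOX replicate 1. By tier, the calls without the block numbered 0, 6, 15 and 6 in FL and 6, 16, 40 and 24 in ΔB+C.

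**Figure D2:**
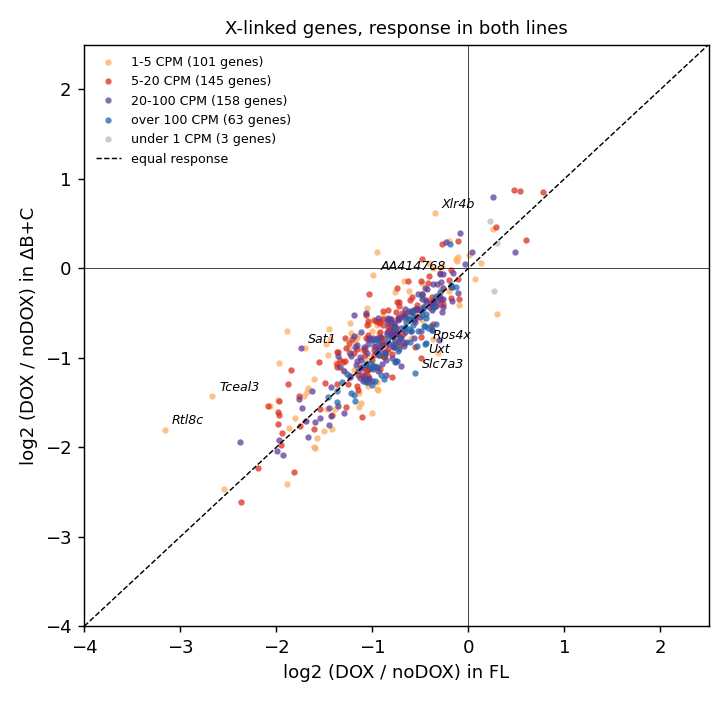
Log2 (DOX / noDOX) of the 470 X‐linked genes in FL (x axis) and ΔB+C (y axis), coloured by tier of mean noDOX CPM; points above the dashed line had a higher response in ΔB+C. Labelled genes are described in the text, and most points lie in the lower left quadrant close to the line.

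Among X‐linked genes over 100 CPM, the genes lower in ΔB+C with the smallest p were *Slc7a3* and *Rps4x*. *Slc7a3* (chromosome X, 101079210 to 101086020, minus strand, mm10) encodes a transporter of cationic amino acids such as arginine. It stood at 173 and 170.5 CPM in FL noDOX, 120.0 and 114 in FL DOX, 138 and 160.0 in ΔB+C noDOX, and 59.7 and 76.04 in ΔB+C DOX. Both induced ΔB+C libraries were below both induced FL libraries, while the noDOX libraries were closer together. The response difference was -0.61 (standard error 0.20, 95% interval -1.09 to -0.14), from log2 (DOX / noDOX) values of -0.56 in FL and -1.17 in ΔB+C. *Rps4x* (chromosome X, 102184941 to 102189394, minus strand, mm10), a protein of the small ribosomal subunit, was at 1357 and 1346 CPM without DOX and 1056 and 926 with DOX in FL, against 1202 and 1295 without and 772 and 647 with DOX in ΔB+C. Its induced ΔB+C values were again the lowest of all 8, with a difference of -0.40 (standard error 0.16, 95% interval -0.78 to -0.022), although its many processed copies elsewhere in the genome make its count uncertain. Higher in ΔB+C were *Ogt*, the O‐GlcNAc transferase, by 0.19 (-0.17 to 0.55) and *Klhl13*, an adaptor of a cullin ubiquitin ligase, by 0.47 (-0.61 to 1.55). *Klhl13* ran at 99.6 and 147 CPM in FL noDOX, 98.6 and 117 in FL DOX, 90.4 and 162 in ΔB+C noDOX, and 131 and 183 in ΔB+C DOX, and its replicates differed by more than its groups did.

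At 20 to 100 CPM, *Pcyt1b* and *Sox3* were lower in ΔB+C and *Gprasp1* and *Hmgn5* higher. *Pcyt1b*, an enzyme of phosphatidylcholine synthesis, had 38.6 and 38.1 CPM (FL noDOX), 21.2 and 21.3 (FL DOX), 44.5 and 46.1 (ΔB+C noDOX) and 20.3 and 20.4 (ΔB+C DOX). Its induced libraries were alike in both lines and its noDOX libraries were higher in ΔB+C, which gave a difference of -0.33 (standard error 0.14, 95% interval -0.66 to -0.0075). *Sox3* (chromosome X, 60891366 to 60893430, minus strand, mm10), a SOXB1 transcription factor of neural progenitors, was at 40.98 and 36.5 CPM in FL noDOX, 30.02 and 32.95 in FL DOX, 75.5 and 59.9 in ΔB+C noDOX, and 35.2 and 44.5 in ΔB+C DOX. Its ΔB+C libraries were above the FL libraries both without and with DOX, by 0.81 and 0.32 on the log2 scale. The difference of -0.49 (-1.04 to 0.049) thus came from a gap between the lines that was larger without DOX. *Gprasp1*, which sorts G protein‐coupled receptors to lysosomes, differed by 0.28 (standard error 0.13, 95% interval -0.023 to 0.58) and had 53.5 and 54.7 CPM without DOX and 29.96 and 30.7 with DOX in FL, against 45.9 and 45.9 without and 32.1 and 31.8 with DOX in ΔB+C. *Hmgn5*, a nucleosome‐binding protein, differed by 0.44 (-0.21 to 1.08).

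At 5 to 20 CPM, *Uxt*, a prefoldin‐like cofactor (chromosome X, 20941722 to 20962017, minus strand, mm10), was counted at 14.3 and 13.97 CPM in FL noDOX, 10.2 and 9.92 in FL DOX, 12.7 and 14.00 in ΔB+C noDOX, and 6.82 and 6.797 in ΔB+C DOX. The 2 ΔB+C DOX libraries were nearly equal and below all others, and the difference was -0.51 (standard error 0.19, 95% interval -0.96 to -0.054). *Tmem28* differed by -0.55 (-1.16 to 0.057). Among genes higher in ΔB+C, *Pnma5*, a gene derived from a retrotransposon, differed by 0.74 (-0.061 to 1.55) and *Xlr3b*, of a multicopy family whose members can share reads, by 0.59 (-0.0013 to 1.18). *Pnma5* was at 6.33 and 9.51 CPM without DOX and 3.64 and 4.11 with DOX in FL, against 5.09 and 5.24 without and 4.82 and 3.83 with DOX in ΔB+C, its highest value being FL noDOX replicate 2.

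In the tier of 1 to 5 CPM the largest differences were also the least certain. *Xlr4b*, a neighbour of *Xlr3b* in the same family, had 3.27 and 3.39 CPM in FL noDOX, 3.12 and 2.12 in FL DOX, 1.92 and 2.15 in ΔB+C noDOX, and 3.104 and 3.29 in ΔB+C DOX. Its noDOX values were lower in ΔB+C than in FL and its DOX values overlapped between lines, with a difference of 0.97 (standard error 0.35, 95% interval 0.15 to 1.78). *AA414768*, annotated as a processed pseudogene, was at 1.94 and 1.74 CPM without DOX and 0.962 and 0.89 with DOX in FL, against 1.54 and 1.86 without and 1.77 and 1.53 with DOX in ΔB+C. It was lower with DOX in both FL replicates and not in both ΔB+C replicates, and differed by 0.92 (standard error 0.35, 95% interval 0.097 to 1.73). Lower in ΔB+C were *Gpr173*, an orphan receptor, at -0.61 (-1.68 to 0.45) and *Prrg1*, a membrane protein with a vitamin K‐dependent Gla domain, at -0.63 (-1.79 to 0.53).

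Lists of X‐linked genes by function had medians from -0.053 to 0.17, beside 0.053 over all 470 X‐linked genes. The 37 metabolic enzymes had a median of -0.046, with 23 lower in ΔB+C, and the 25 RNA‐binding and RNA‐processing genes -0.053, with 14 lower. Of all 470 X‐linked genes 195 were lower, and of the 63 over 100 CPM 44 were. Both lists have members at 20 to 100 and over 100 CPM, tiers whose X‐linked medians were 0.039 and -0.074. The 28 chromatin regulators had a median of 0.022, the 13 genes known to escape inactivation 0.031, the 7 genes of the X‐inactivation centre -0.022, and the 19 *Armcx*, *Gprasp*, *Bex* and *Tceal* genes -0.011. The 16 *Rhox*, *Mage* and retrotransposon‐derived genes had the highest median of the X‐linked lists, 0.17, but it was 0.031 and 0.32 in replicates 1 and 2. No member of any list was called. The lists differed from each other in how far they were lower with DOX: the median log2 (DOX / noDOX) was -0.44 in FL and -0.47 in ΔB+C for the escaping genes, and -1.36 in FL and -1.41 in ΔB+C for the *Armcx* to *Tceal* group.

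Single members show the spread inside these lists. Among the metabolic enzymes, *Sat1*, which acetylates spermidine and spermine, was highest in ΔB+C with a difference of 0.85 (standard error 0.70, 95% interval -0.80 to 2.49). It had 39.1 and 25.02 CPM (FL noDOX), 12.4 and 6.81 (FL DOX), 36.2 and 20.3 (ΔB+C noDOX) and 21.9 and 9.13 (ΔB+C DOX), and its replicate 1 level was above its replicate 2 level in every group, while the difference was 0.91 and 0.68 within replicates 1 and 2. With the replicate block the standard error of *Sat1* was 0.19, and it was not called. The lowest enzyme was *Gla*, the lysosomal alpha‐galactosidase, at -0.42 (-0.95 to 0.11). Of the RNA‐binding genes, *Fmr1*, the translational regulator lost in fragile X syndrome, was highest at 0.39 and *Fam120c* lowest at -0.42.

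Of the chromatin regulators, *Msl3* of the male‐specific lethal acetyltransferase complex was highest at 0.26 and *Hcfc1*, a cofactor that binds OGT, lowest at -0.25 (-0.50 to 0.0014). *Hcfc1* was at 423 and 441 CPM in FL noDOX, 327 and 321 in FL DOX, 531 and 512 in ΔB+C noDOX, and 339 and 333 in ΔB+C DOX. Its noDOX levels were higher in ΔB+C and its DOX levels were close in both lines. Among escaping genes, the actin‐binding protein gene *Shroom4* was highest at 0.26 and the histone H3K4 demethylase gene *Kdm5c* lowest at -0.18. In the X‐inactivation centre, *Nap1l2*, a histone chaperone gene, stood at 0.24 and *Tsix*, the antisense partner of *Xist*, at -0.52, with *Tsix* between 0.679 and 1.198 CPM in all 8 libraries. No strand option was named for the counting, and *Tsix* overlaps *Xist*, so reads from the shared stretch cannot be told apart by strand. *Tsix* stayed in this range in the DOX libraries, where *Xist* was at 869 to 1830 CPM.

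The 2 largest X‐linked list values belonged to scarce transcripts. *Rtl8c*, a gene derived from a retrotransposon *gag* gene with near copies beside it, had 6.47 and 4.32 CPM in FL noDOX, 0.903 and 0.314 in FL DOX, 4.74 and 3.201 in ΔB+C noDOX, and 1.74 and 0.542 in ΔB+C DOX. Its difference was 1.36 (standard error 0.86, 95% interval -0.68 to 3.40), from responses of -3.16 in FL and -1.81 in ΔB+C, and the lowest of its list was *Zfp36l3* at -0.24. *Tceal3*, of a family of transcription elongation factor A‐like proteins, had 1.62 and 2.24 CPM without DOX and 0.233 and 0.366 with DOX in FL, against 1.84 and 1.11 without and 0.513 and 0.606 with DOX in ΔB+C and a difference of 1.24 (standard error 0.55, 95% interval -0.069 to 2.55). *Armcx3*, a mitochondrial outer membrane protein gene, was the lowest of that group at -0.46 (-1.23 to 0.32).

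**Figure D3:**
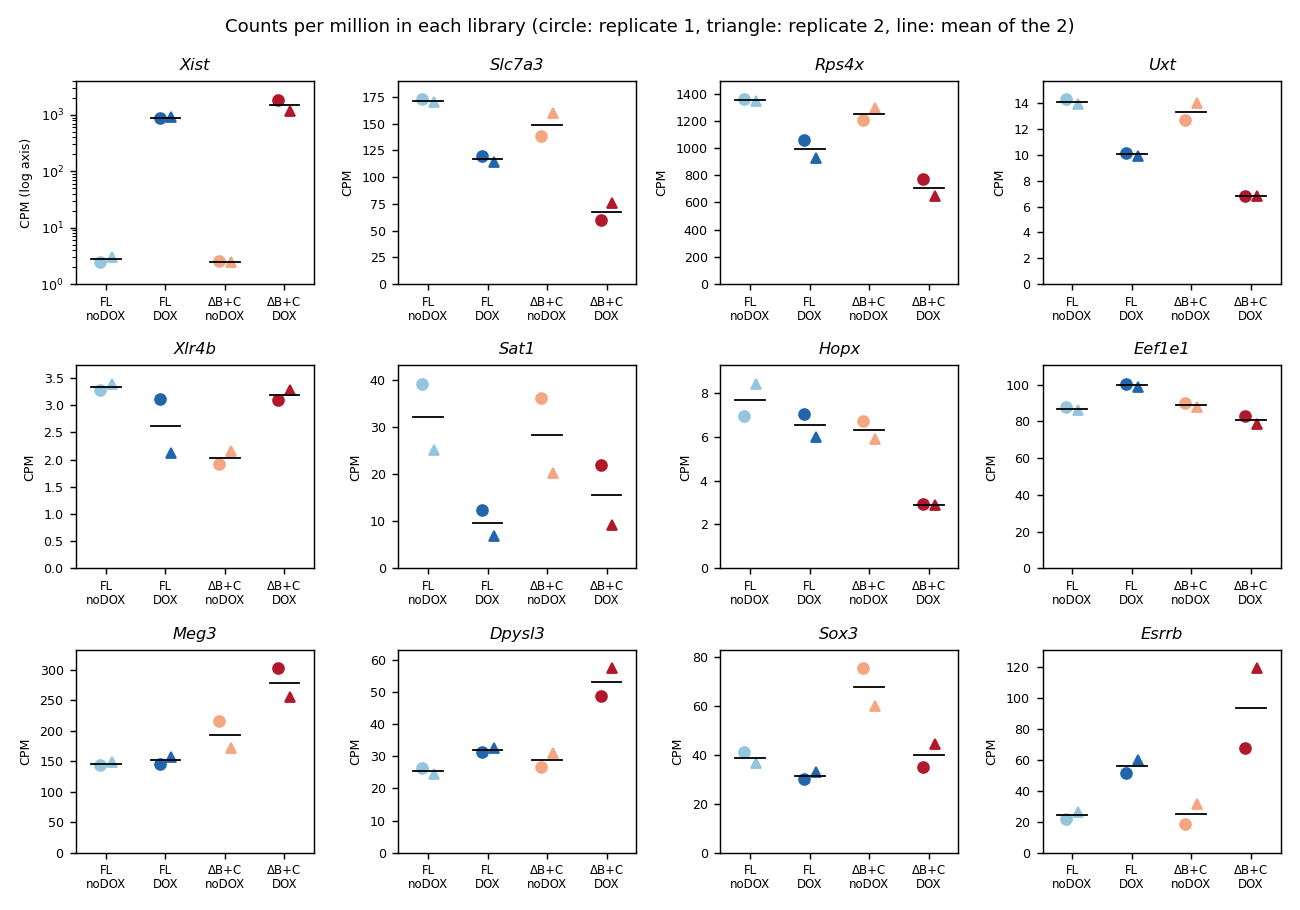
CPM in each of the 8 libraries for 12 genes described in the text, with replicate 1 as circles, replicate 2 as triangles and the mean of the 2 as a line; *Xist* is on a log axis and the others on linear axes from 0. *Hopx* and *Uxt* are lowest in both ΔB+C DOX libraries, and *Meg3* and *Dpysl3* are highest there.

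Among autosomal genes, the smallest p in the whole table belonged to *Hopx* (chromosome 5, 77086988 to 77115121, minus strand, mm10), an atypical homeodomain protein that does not bind DNA. It had 6.93 and 8.41 CPM in FL noDOX, 7.05 and 5.99 in FL DOX, 6.74 and 5.88 in ΔB+C noDOX, and 2.92 and 2.87 in ΔB+C DOX. The 2 ΔB+C DOX libraries were almost equal and lower than all 6 others, with a difference of -0.92 (standard error 0.26, 95% interval -1.53 to -0.30), -1.24 and -0.58 within replicates 1 and 2. In the same tier of 5 to 20 CPM, *Coro1a*, an actin‐binding coronin, was at 14.4 and 13.4 CPM without DOX and 14.9 and 15.00 with DOX in FL, against 15.5 and 13.8 without and 11.5 and 9.73 with DOX in ΔB+C, again lowest in both ΔB+C DOX libraries, and differed by -0.59 (standard error 0.20, 95% interval -1.07 to -0.12). Higher in ΔB+C were *Cox6b2*, a testis form of a cytochrome c oxidase subunit, by 0.59 (0.058 to 1.12) and *Pigc*, of the first step of GPI anchor synthesis, by 0.53 (0.021 to 1.04). *Cox6b2* had 14.8 and 13.5 CPM (FL noDOX), 18.1 and 20.4 (FL DOX), 15.8 and 11.9 (ΔB+C noDOX) and 29.8 and 28.1 (ΔB+C DOX), higher in both ΔB+C DOX libraries than in any other.

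At 20 to 100 CPM, *Eef1e1*, a scaffold protein of the aminoacyl‐tRNA synthetase complex, was at 87.7 and 85.9 CPM in FL noDOX, 100.5 and 98.97 in FL DOX, 89.8 and 87.9 in ΔB+C noDOX, and 82.8 and 78.8 in ΔB+C DOX. It was higher with DOX in both FL replicates and lower in both ΔB+C replicates, and its difference of -0.37 (standard error 0.11, 95% interval -0.64 to -0.10) was among the most precisely estimated. *Zbed5*, a gene derived from a DNA transposase, differed by -0.55 (standard error 0.17, 95% interval -0.95 to -0.14). *Dpysl3*, a cytoskeletal protein of growing axons, was at 26.4 and 24.5 CPM without DOX and 31.4 and 32.7 with DOX in FL, against 26.8 and 31.05 without and 48.9 and 57.5 with DOX in ΔB+C. It was higher in both ΔB+C DOX libraries than in any other, with a difference of 0.52 (standard error 0.19, 95% interval 0.063 to 0.97). *C2cd5*, a calcium‐binding protein of vesicle traffic, differed by 0.40 (0.059 to 0.75).

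Over 100 CPM, *Meg3*, a maternally expressed long non‐coding RNA of the *Dlk1*‐*Dio3* imprinted region (chromosome 12, 109541001 to 109571726, plus strand, mm10), was at 144 and 148 CPM in FL noDOX, 146 and 157 in FL DOX, 216 and 171 in ΔB+C noDOX, and 303 and 254 in ΔB+C DOX. Its levels hardly differed between FL DOX and FL noDOX and were highest in ΔB+C DOX, with a difference of 0.44 (standard error 0.18, 95% interval 0.013 to 0.88). The noDOX level was already higher in ΔB+C in both replicates. *Taf15*, an RNA‐binding protein of the FET family, differed by 0.27 (-0.066 to 0.60). Lower in ΔB+C were *Smo*, the Hedgehog signal transducer, at -0.46 (-0.84 to -0.088) and the predicted gene *Gm4737* at -0.43 (-0.76 to -0.11). *Smo* had 118 and 139 CPM (FL noDOX), 89.2 and 77.7 (FL DOX), 176 and 173 (ΔB+C noDOX) and 82.8 and 85.2 (ΔB+C DOX), so that its 4 DOX libraries lay close together and its noDOX libraries were higher in ΔB+C.

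The weakest tier, 1 to 5 CPM, held the largest named autosomal differences. These were *Anks1b*, a postsynaptic protein, at 1.19 (0.29 to 2.09), *Tnfrsf18*, the receptor GITR, at 1.1 (0.28 to 1.92), *1500015O10Rik*, which encodes the secreted peptide augurin, at -1.23 (-2.17 to -0.28), and *Prkar1b*, a regulatory subunit of protein kinase A, at -0.92 (-1.69 to -0.14). *Anks1b* was at 1.29 and 1.37 CPM in FL noDOX, 1.43 and 1.33 in FL DOX, 1.52 and 1.16 in ΔB+C noDOX, and 3.82 and 2.68 in ΔB+C DOX, so that the 2 ΔB+C DOX libraries stood above all others. Among the 146 autosomal genes with at least 5 CPM without DOX and a difference over 0.5 in size and of one sign in both replicates, 87 were higher in ΔB+C. For 100 of the 146, the lines differed more with DOX than without, and for 46 more without. The X‐linked genes past the same bounds numbered 18, of which 15 were higher in ΔB+C.

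Markers of pluripotency were split. The 13 genes of the formative and primed state, which ES cells enter as they leave naive pluripotency, had a median response difference of -0.20. In ΔB+C 13 of 13 were lower, beside 6228 of 12779 autosomal genes. Autosomal genes lower in ΔB+C numbered 1393 of 2151 over 100 CPM and 2397 of 4830 at 20 to 100 CPM. The list has members in both tiers, such as *Dnmt3b* in the first and *Sox3* in the second. With library totals as the only scaling, the smallest of the 13 list differences, that of *Zic2*, turned to 0.024. None was called, 11 were lower in both replicates, and the median stayed between -0.37 and -0.16 as each library was left out. The list median response was 0.27 in FL and -0.092 in ΔB+C. *Pou3f1*, a POU factor of the primed epiblast, was at 262 and 289 CPM in FL noDOX, 319.7 and 396 in FL DOX, 262 and 324 in ΔB+C noDOX, and 231 and 346 in ΔB+C DOX. It was higher with DOX in both FL replicates, and in ΔB+C it was lower in replicate 1 and slightly higher in replicate 2. *Dnmt3b*, a de novo DNA methyltransferase, was at 1107 and 1403 CPM without DOX and 960.1 and 1245 with DOX in FL, against 1099 and 1227 without and 817 and 881 with DOX in ΔB+C, with the 2 ΔB+C DOX libraries the lowest of the 8. The lowest member was *Sox3*, described above, and the highest was *Zic2*, a zinc finger factor, at -0.0080 (-0.53 to 0.52). *Pou3f1* and *Dnmt3b* were picked out after their values were seen.

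The naive factors gave no common direction. Of the 16 naive factors, 10 were higher in ΔB+C, with a median of 0.18 that ran from -0.20 without ΔB+C noDOX replicate 1 to 0.34 without ΔB+C DOX replicate 1. *Esrrb*, a nuclear receptor that sustains self‐renewal (chromosome 12, 86361117 to 86521628, plus strand, mm10), was the highest, at 21.7 and 26.4 CPM in FL noDOX, 51.4 and 60.2 in FL DOX, 18.2 and 31.5 in ΔB+C noDOX, and 67.4 and 119 in ΔB+C DOX. It was higher with DOX in both replicates of both lines and differed by 0.66 (standard error 0.48, 95% interval -0.47 to 1.79). *Dppa5a*, a developmental pluripotency‐associated gene, was the lowest at -0.40 (-1.58 to 0.77). Of the 12 core factors, 8 were lower, with a median of -0.095, from *Utf1*, a chromatin‐bound ES cell protein, at -0.43 to *Lin28b*, a blocker of let‐7 processing, at 0.14. In both replicates 8 were lower and 1 was higher, and none was called. Autosomal genes lower in both replicates numbered 3458 of 12779, and 895 of the 2151 over 100 CPM. The core median was -0.13 and -0.080 within replicates 1 and 2, and -0.30 to -0.015 as each library was left out.

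Genes of mesendoderm and Nodal signalling pointed the other way. Of 13 tested, 11 were higher in ΔB+C with a median of 0.21, 0.14 and 0.27 within replicates 1 and 2. In both replicates 11 were higher, beside 3665 of 12779 autosomal genes, and the median with the replicate block was 0.22. But the median was -0.27 without ΔB+C DOX replicate 1 and 0.47 without ΔB+C DOX replicate 2. Leaving out a library unbalances the replicate numbers. *Wnt8a*, a Wnt ligand of the primitive streak, was the highest with 17.4 and 28.9 CPM in FL noDOX, 12.5 and 14.2 in FL DOX, 9.400 and 10.4 in ΔB+C noDOX, and 10.6 and 9.797 in ΔB+C DOX. Its ΔB+C noDOX libraries were below both FL noDOX libraries and overlapped the ΔB+C DOX libraries, and the difference was 0.80 (standard error 0.34, 95% interval 0.00019 to 1.61). *Tdgf1*, the Nodal co‐receptor Cripto, was lowest at -0.31 (-1.08 to 0.46). *Mixl1*, a homeobox gene of the primitive streak, had 23.98 and 8.98 CPM (FL noDOX), 10.3 and 2.64 (FL DOX), 14.8 and 5.15 (ΔB+C noDOX) and 8.31 and 3.06 (ΔB+C DOX), higher in replicate 1 than in replicate 2 in every group, with a difference of 0.52 (standard error 1.17, 95% interval -2.25 to 3.29). *Mixl1* was named after its values were seen.

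The integrated stress response list holds genes switched on by ATF4, the transcription factor made when amino acids run short or translation is slowed. Of its 22 members, 17 were lower in ΔB+C and 15 in both replicates, with a median of -0.14 (-0.16 and -0.15 within replicates 1 and 2). Of 12779 autosomal genes, 6228 were lower and 3458 were lower in both replicates. None was called, and with the replicate block 7 lower and 1 higher member had an unadjusted p under 0.05, beside 561 of all 13255 genes (4.23%). The median was -0.40 without the low‐input library and 0.036 without ΔB+C noDOX replicate 2. The lowest members after *Chac1* were *Slc7a3*, the X‐linked transporter above, and *Pck2*, the mitochondrial PEP carboxykinase, at -0.54. *Chac1*, which degrades glutathione (chromosome 2, 119351229 to 119354381, plus strand, mm10), was at 9.65 and 20.8 CPM in FL noDOX, 14.1 and 25.3 in FL DOX, 9.13 and 25.1 in ΔB+C noDOX, and 9.44 and 17.9 in ΔB+C DOX, with replicate 2 well above replicate 1 in every group and a difference of -0.74 (standard error 0.85, 95% interval -2.75 to 1.28). Within replicates 1 and 2 the difference of *Chac1* was -0.51 and -0.81. *Psat1* and *Phgdh*, enzymes of serine synthesis, differed by -0.33 and -0.34. *Psat1* had 556 and 604 CPM without DOX and 455 and 428 with DOX in FL, against 543 and 612 without and 342 and 371 with DOX in ΔB+C, lowest in both ΔB+C DOX libraries. *Atf4* itself differed by -0.065 (-0.40 to 0.27) and *Asns*, asparagine synthetase, by 0.012, while *Ddit4*, *Ddit3* and *Atf3* were higher by 0.28, 0.32 and 0.40. Besides *Chac1* and *Atf3*, these members were named after their values were seen.

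ATF4 dimers bind the element TGATGNAA. Read on both strands, it was present in the RefSeq promoter window (250 bases before to 50 after the start) of 8 of 20 list genes with a window, and of 271 of 10323 tested genes (2.63%). The list was chosen as genes switched on by ATF4, so its higher share is no result of these data. Windows of 30 bases around 4 of these matches are shown because the genes carry the same element and had response differences from the lowest of the list to values near 0. Capitals mark the match as read on the gene's own strand, where TTNCATCA is the element in reverse.
Chac1 (GRCm38.p6, chr2:119351038-119351067, plus strand): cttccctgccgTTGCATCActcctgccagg
Pck2 (GRCm38.p6, chr14:55540152-55540181, plus strand): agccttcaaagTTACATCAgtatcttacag
Asns (GRCm38.p6, chr6:7693214-7693243, minus strand): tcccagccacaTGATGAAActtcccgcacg
Vldlr (GRCm38.p6, chr19:27216809-27216838, plus strand): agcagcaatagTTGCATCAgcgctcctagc
The response differences of these genes were -0.74 for *Chac1*, -0.54 for *Pck2*, 0.012 for *Asns* and 0.036 for *Vldlr*, a lipoprotein receptor gene. Of the others with a match, *Trib3*, *Slc7a11* and *Nupr1* stood at -0.11, -0.11 and -0.11, and *Atf3* at 0.40. The 8 genes with the element thus had differences of both signs, and none was called.

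Imprinted genes held members at both ends. Of 25 tested, 17 were higher in ΔB+C, with a median of 0.15 that lay between -0.034 and 0.21 as libraries were left out. *Peg10*, a retrotransposon‐derived gene expressed from the paternal copy, was highest at 0.51 (-1.75 to 2.77), and *Cdkn1c*, the cell cycle inhibitor p57 expressed from the maternal copy, lowest at -0.50 (-1.56 to 0.56). *Cdkn1c* was at 78.9 and 109 CPM in FL noDOX, 91.8 and 133 in FL DOX, 56.9 and 85.2 in ΔB+C noDOX, and 47.9 and 74.96 in ΔB+C DOX, lower in both ΔB+C DOX libraries than in the ΔB+C noDOX libraries of the same number. *Meg3*, above, and *Rian*, a second non‐coding RNA of its region, were both higher in ΔB+C, *Rian* by 0.37 (-0.099 to 0.83). *Rian* was named after its values were seen.

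The Polycomb machinery that the B and C repeats engage gave medians near 0. The 24 PRC1 subunits had a median of 0.0047, the 12 PRC2 subunits 0.058, and the 27 genes of *Xist*‐binding and silencing factors -0.0076. *Pcgf5*, a subunit of the PRC1 form that hnRNPK recruits to *Xist* (chromosome 19, 36348309 to 36460970, plus strand, mm10), was the highest PRC1 gene, at 11.1 and 12.1 CPM in FL noDOX, 9.65 and 8.14 in FL DOX, 9.75 and 10.7 in ΔB+C noDOX, and 12.7 and 10.5 in ΔB+C DOX. It was lower with DOX in both FL replicates, and its difference was 0.53 (standard error 0.24, 95% interval -0.029 to 1.09). *Cbx6*, a chromodomain subunit, was lowest at -0.17. Of PRC2, *Phf19*, a Polycomb‐like accessory subunit, was highest at 0.39, and *Epop*, an accessory subunit linked to elongin, lowest at -0.77 (-1.87 to 0.34). *Epop* had 718 and 678 CPM without DOX and 1474 and 1253 with DOX in FL, against 588 and 731 without and 484 and 1061 with DOX in ΔB+C. It was well above its noDOX level in both FL replicates and in ΔB+C replicate 2, and below it in ΔB+C replicate 1. Of the *Xist*‐binding group, *Hnrnpa1*, an RNA‐binding protein with many processed copies, was highest at 0.49 and *Rbm15b*, an adaptor of the m6A writer complex, lowest at -0.27.

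Respiratory chain and ribosomal protein genes are strongly expressed, and their values stand beside those of autosomal genes over 100 CPM. Of 45 subunits of oxidative phosphorylation 37 were lower, with a median of -0.081 that stayed between -0.14 and -0.027 as libraries were left out. It was 0.00094 and -0.13 within replicates 1 and 2, and 18 of the 45 were lower in both. Of the 45 genes, 33 are over 100 CPM, a tier whose autosomal median was -0.042, with 1393 of 2151 genes lower. The extremes were *Cox7b*, an X‐linked cytochrome c oxidase subunit, at -0.28 and *Ndufa5*, of complex I, at 0.17. Of 76 cytosolic ribosomal protein genes 53 were lower, a share near that of the autosomal tier. Their median was -0.062, and the medians were 0.064 and -0.21 within replicates 1 and 2. Of the 76, 23 were lower in both replicates, and the median ran from -0.15 to 0.025 as libraries were left out. *Rps4x*, above, was the lowest and *Rpl34*, counted at no more than 3.39 CPM although its product is abundant, the highest at 0.23.

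A list of actin, junction and YAP target genes, drawn up after values were seen and so no independent evidence, had 23 of 24 members higher in ΔB+C and a median of 0.27. *Afap1*, an actin filament‐binding protein, was highest at 0.68 with 16.3 and 9.54 CPM (FL noDOX), 15.5 and 9.34 (FL DOX), 13.9 and 10.4 (ΔB+C noDOX) and 22.4 and 15.6 (ΔB+C DOX). Its 2 ΔB+C DOX values were the highest of their replicate number. *Ajuba*, a LIM protein of cell junctions, was lowest at -0.23. The replicates themselves differed widely here: *Ahnak*, a scaffold protein under the membrane, was at 230.0 and 57.2 CPM without DOX and 196 and 46.8 with DOX in FL, against 256 and 68.9 without and 335 and 99.2 with DOX in ΔB+C, with a difference of 0.64 (standard error 1.40, 95% interval -2.66 to 3.95). Within replicates 1 and 2 the difference of *Ahnak* was 0.61 and 0.77. With the replicate block its unadjusted p in edgeR's quasi‐likelihood test was 0.00023, and it was not called. The list median was 0.18 and 0.30 within replicates 1 and 2, and 0.26 with the replicate block. It ran from -0.34 without FL noDOX replicate 1 to 0.75 without FL DOX replicate 1, where the replicate numbers are unbalanced. In both replicates 20 of the 24 members were higher, beside 3665 of 12779 autosomal genes. The summed fibroblast and feeder markers, given above, also lay lower in replicate 2 of every group, and their part in the result was not tested.

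The lists not described by member held both extremes. Of the 37 lists with tested genes, 32 had a median within 0.2 of 0, and the lowest and highest were the 7 neuroectoderm genes at -0.36 and the 12 fibroblast and feeder markers at 0.31. The neuroectoderm median was -0.72 to 0.0026 and the fibroblast median -0.39 to 1.13 as single libraries were left out. Interferon response genes stood at 0.17 with 10 of 13 higher, p53 targets at 0.16 with 14 of 20 higher, cholesterol synthesis genes at 0.083 with 17 of 22 higher, and heat shock and proteostasis genes at -0.063 with 14 of 17 lower. Glycolysis genes stood at -0.12, with 12 of 21 lower. Over all 12779 autosomal genes 6551 were higher, while 1393 of the 2151 over 100 CPM were lower. Of other cell types, trophoblast genes stood at 0.24 with 6 of 9 higher and *Tpbpa* and *Prl3d1* at 0 in all 8 libraries, and primitive endoderm genes at 0.051 with 9 of 15 higher. No member of these lists was called. The 11 genes of the two‐cell‐like state had no tested member, and their summed level lay between 0.437 and 7.43 CPM.

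**Figure D4:**
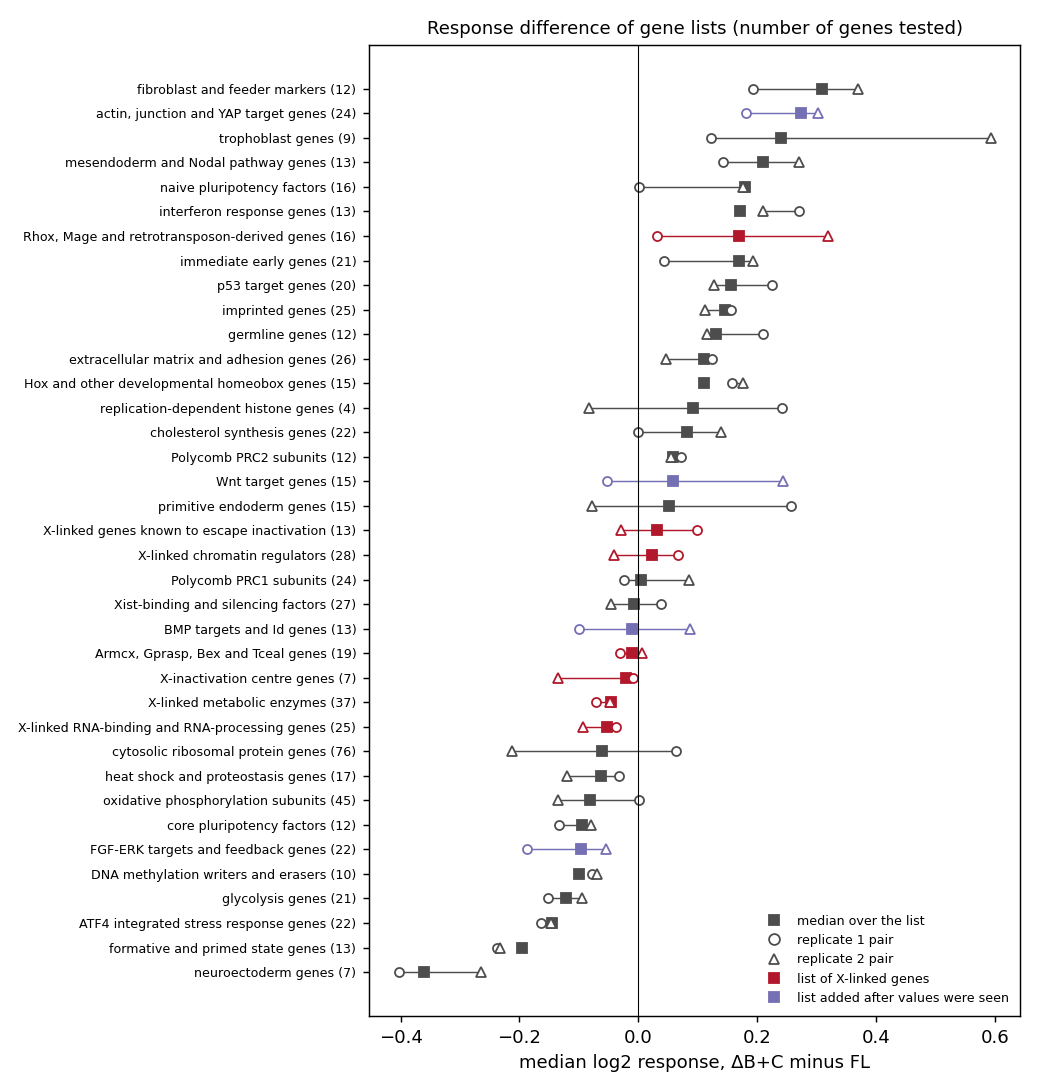
Median response difference (log2, ΔB+C minus FL) of each of the 37 gene lists, with squares for the median over genes and open symbols for the medians within replicate 1 and replicate 2; red marks lists of X‐linked genes and violet lists added after values were seen. The X‐linked lists sit near 0 apart from the *Rhox* and *Mage* list, and formative genes are at -0.20 with both replicates on the same side.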

How the data were processed

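The authors mapped read pairs to mm10 with TopHat2 2.1.0 and the refFlat annotation and deposited raw counts of pairs over the exons of each gene from featureCounts 1.5.1, with no strand option named and without pooling replicates. No normalization had been applied. Here library sizes were scaled by TMM factors from expressed autosomal genes (0.978 to 1.02). The 8 libraries were fitted in edgeR 4.0.16 (R 4.3.3) with 4 group means and the quasi‐likelihood test with robust dispersions, Benjamini–Hochberg adjustment over all 13255 genes and a threshold of 0.05. The common coefficient of variation was 0.181 with 4 residual degrees of freedom. Unless the block is named, standard errors and 95% intervals for single genes were derived from the quasi‐likelihood F of the fit without the replicate block. That fit leaves out the pairing of same‐numbered libraries, so its intervals also hold the difference between replicates. The median half‐width of the 95% interval was 0.58 for autosomal and 0.75 for X‐linked genes. With the block it was 0.35 and 0.42. Values within a replicate used log2 CPM with a prior count of 1. CPM values given are not TMM‐scaled. DESeq2 1.42.0, limma 3.58.1, other scalings and filters, the other 4 libraries and leaving out libraries were alternatives.

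Groups came from the labels. The file name of ΔB+C noDOX replicate 1 carries the word DOX while its labels say noDOX, and its *Xist* count was 96. Same‐numbered libraries deviated together: across 12779 autosomal genes the difference between replicates 2 and 1 correlated between groups with r from 0.592 to 0.779 in all 6 pairs of groups (genes are not independent replicates), so the replicate number was also fitted as a block.

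Lists and genes were chosen with earlier results of these data known. Named genes were *Xist*, the 2 genes per direction, class and tier with the smallest p among those of one sign in both replicates, and the highest and lowest member of each of 19 lists described by member. The other lists are given by counts and medians. The 4 lists on FGF‐ERK, actin and YAP, Wnt and BMP were added after values were seen: the FGF‐ERK, Wnt and BMP medians were -0.097, 0.058 and -0.010. Positions are from GENCODE vM21 (GRCm38, equal to mm10), in which all 69 named genes were found. Plots used matplotlib 3.10.9 under Python 3.11.15.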

Additional observations from a re-analysis of the deposited data

Results flagged for a closer look

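Opposite responses were seen for 2 of the named genes with at least 5 CPM without DOX, *Peg10* and *Cdkn1c*, in that both FL replicates moved one way with DOX and both ΔB+C replicates the other, each by more than 0.2 on the log2 scale. For *Peg10* the log2 (DOX / noDOX) values were -0.26 and -0.26 in FL and 0.27 and 0.21 in ΔB+C, a response difference of 0.512. Its counts were 555 and 201 CPM in FL noDOX, 465 and 168 in FL DOX, 569.8 and 269 in ΔB+C noDOX, and 696 and 322 in ΔB+C DOX, so that replicate 1 was well above replicate 2 in every group. For *Cdkn1c* they were 0.21 and 0.28 in FL and -0.27 and -0.23 in ΔB+C, a difference of -0.498. Below 5 CPM the same held for *Prkar1b*, with 0.47 and 0.50 in FL and -0.45 and -0.38 in ΔB+C, and for *Tnfrsf18*, with -0.54 and -0.33 in FL and 0.51 and 0.77 in ΔB+C. In the test over all genes none of the 4 passed, with an adjusted p of 1.00 in edgeR. The standard errors of *Peg10* and *Cdkn1c* were 0.96 and 0.45 without the replicate block, and 0.16 and 0.11 with it.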

How the results depend on the processing

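No gene was called for the response difference under the main settings or any of the 18 alternatives, and the number at an unadjusted p under 0.05 was 34 to 383 as single libraries were left out, 152 with no filter, 44 with a filter of 5 CPM and 40 with DESeq2. A library left out leaves its group with 1 sample, which is assumed to vary like the other groups, and unbalances the replicate numbers.

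Adding the replicate number as a block, which pairs same‐numbered libraries, changed no call on the difference and raised the X‐linked genes called lower with DOX from 27 to 381 in FL and from 86 to 354 in ΔB+C. The counts were 127 and 159 with all 12 libraries of the series, 376 and 352 with these and the block, 237 and 214 with DESeq2, and 87 and 135 with no filter. As single libraries were left out they ranged from 0 to 74 in FL and from 0 to 90 in ΔB+C. The median response difference of X‐linked genes ranged from -0.11 to 0.20. Scaled by library totals, the X‐linked median was 0.0834 and the autosomal median 0.0359, a shift that moves both classes alike.

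Some named genes of low precision in the fit without the block changed sign, and the cause was not tested. Of the genes listed here, *Zic2*, *Ndufa5*, *Rpl34* and *Msl3* had differences of opposite sign in the 2 replicates, and the others of one sign. The difference of *Zic2* was 0.0239 with library totals. As single libraries were left out, *Dppa5a* ranged from -0.75 to 0.0088, *Lin28b* ranged from -0.16 to 0.39, *Zic2* ranged from -0.15 to 0.14, *Phf19* ranged from -0.11 to 0.79, *Peg10* ranged from -0.40 to 1.42, *Atf3* ranged from -0.21 to 1.19. Likewise, *Chac1* ranged from -1.39 to 0.20, *Ndufa5* ranged from -0.30 to 0.52, *Rpl34* ranged from -0.50 to 0.72, *Nap1l2* ranged from -0.37 to 0.65, *Msl3* ranged from -0.27 to 0.64, *Zfp36l3* ranged from -0.64 to 0.083. The other 57 of the 69 named genes kept their sign under every alternative that gave a value. The 2 replicates per group and the few residual degrees of freedom limit what could be detected.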

Other observations

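The Y‐linked genes, which belong to neither class above, held one of the smallest p‐values of the table. *Eif2s3y*, the Y copy of a translation initiation subunit gene, was at 28.9 and 35.7 CPM in FL noDOX, 26.9 and 34.1 in FL DOX, 20.4 and 22.1 in ΔB+C noDOX, and 34.8 and 34.8 in ΔB+C DOX. Its 2 ΔB+C noDOX libraries were below all 6 others, and the response difference was 0.76 (standard error 0.23, 95% interval 0.22 to 1.29). *Uty* and *Ddx3y*, the Y copies of a histone demethylase and an RNA helicase gene, were at 0.46 (-0.15 to 1.08) and 0.36 (-0.34 to 1.06), and both were lower in each ΔB+C noDOX library than in any FL noDOX library. *Uty* had 14.3 and 16.7 CPM without DOX and 13.1 and 17.5 with DOX in FL, against 10.6 and 9.11 without and 13.2 and 14.2 with DOX in ΔB+C. The remaining *Uba1y* and *Erdr1* stood at -0.12 and -0.095. The X copies *Eif2s3x*, *Kdm6a* and *Ddx3x* stood at -0.11, 0.14 and 0.037. None of these genes was called, they were picked out after their values were seen, and X and Y copies can share reads.

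By chromosome, the median response difference of autosomes ran from -0.071 on chromosome 14 to 0.060 on chromosome 6, with the X chromosome at 0.053. On chromosome 14 the median log2 (DOX / noDOX) was 0.071 in FL and -0.0027 in ΔB+C, and the median log2 ratio of ΔB+C to FL was -0.19 without DOX and -0.27 with DOX.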
